A study of Mus musculus with 10 samples.

Results

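The 10 genes described here encode parts of 3 vascular signaling systems. They are the ligand apelin (Apln) and its receptor (Aplnr), the receptor TIE2 (Tek) with its angiopoietin ligands (Angpt1 and Angpt2), and the VEGF ligands Vegfa and Vegfc with the receptors Flt1 and Kdr and the coreceptor Nrp1. They were chosen by gene symbol, and all 10 were found among the 50763 genes of the count table. RNA was taken from lens epithelia of 3-week-old FVB/N mice, isolated as whole explants and pooled so that 1 pool gave 1 RNA-seq library. There were 3 WT pools of up to 9 mice, 3 pools of up to 9 mice from the OVE853 line and 4 pools of up to 7 mice from the OVE918 line. Both lines were homozygous for a transgene in which the lens-specific murine αA-crystallin promoter drives a constitutively active human TGF-β1, secreted by the lens itself, and their explants included anterior subcapsular plaques. WT mice had the same background without the transgene, and pools mixed males and females of different litters. Each line comes from its own transgene insertion, so the comparison with WT was made for each line on its own.

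Apelin is a secreted peptide that acts on the G protein-coupled receptor APLNR. TIE2 is a receptor tyrosine kinase that angiopoietin-1 activates and that angiopoietin-2 can activate or block depending on context. VEGF-A acts mainly through KDR (VEGFR2), FLT1 (VEGFR1) binds the same ligand tightly, and neuropilin-1 is a coreceptor for VEGF and for class 3 semaphorins. These systems are best known in endothelial cells, whereas the postnatal lens has no vessels of its own and is in development surrounded by a transient vasculature that regresses. The lens epithelium is known to make VEGF-A.

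Libraries held 24073311 to 31908525 assigned read pairs, and levels are given as CPM, counts scaled to library sizes with TMM factors, or as FPKM where genes are compared with each other. Reads assigned to mouse Tgfb1 gave 48.2 to 59.6 CPM in WT, 325 to 348 CPM in OVE853 and 691 to 852 CPM in OVE918. This separates the groups, but the transgene is human, and how much of it aligned to the mouse gene was not tested. The lens epithelium genes Foxe3 (424 to 836 CPM) and Pax6 (356 to 473 CPM) were abundant in every library. WT replicate 3 stood apart from the other WT libraries: the summed level of 10 retinal neuron markers was 978 CPM in it against 96.3 and 119 CPM, and that of 7 markers of Müller glia and retinal astrocytes was 1574 CPM against 469 and 473 CPM. Of the 10 genes, Apln, Aplnr, Tek and Vegfa were at their lowest of all 10 libraries in WT replicate 3, and Vegfc, Flt1, Kdr and Nrp1 were at their highest. The change of each of the 10 genes against WT, their order in WT and their difference between the lines are therefore given with and without it. In whole explants, fewer cells of a type and less RNA per cell cannot be told apart.

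A gene entered the test of edgeR (quasi-likelihood, false discovery rate (FDR) over all genes tested) with at least 2 FPKM in at least 5 of the 10 libraries, and was called at an FDR of at most 0.05 with a log2 fold change of at least 1 in either direction. Of the 10 genes, 4 passed this minimum (Apln, Tek, Vegfa and Kdr) among 11097 genes in all. Apln passed it only through transgenic libraries, as 0 of 3 WT libraries reached 2 FPKM. A wider test on the 18058 genes kept by edgeR's own filter on counts held all 10. In the first test 4.42% of genes were called in OVE853 and 5.60% in OVE918, and in the wider test 6.89% and 8.79%. Apln was the 1 gene of the 4 called in both lines, and the wider test added Aplnr and Flt1 in OVE918. The groups did not overlap for 6 of the 10 genes in OVE853 (Apln, Aplnr, Tek, Vegfa, Flt1 and Kdr) and for the same 6 in OVE918, where this was so for 41.4% and 25.8% of all genes in the wider test. Both comparisons use the same WT libraries.

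**Figure D1:**
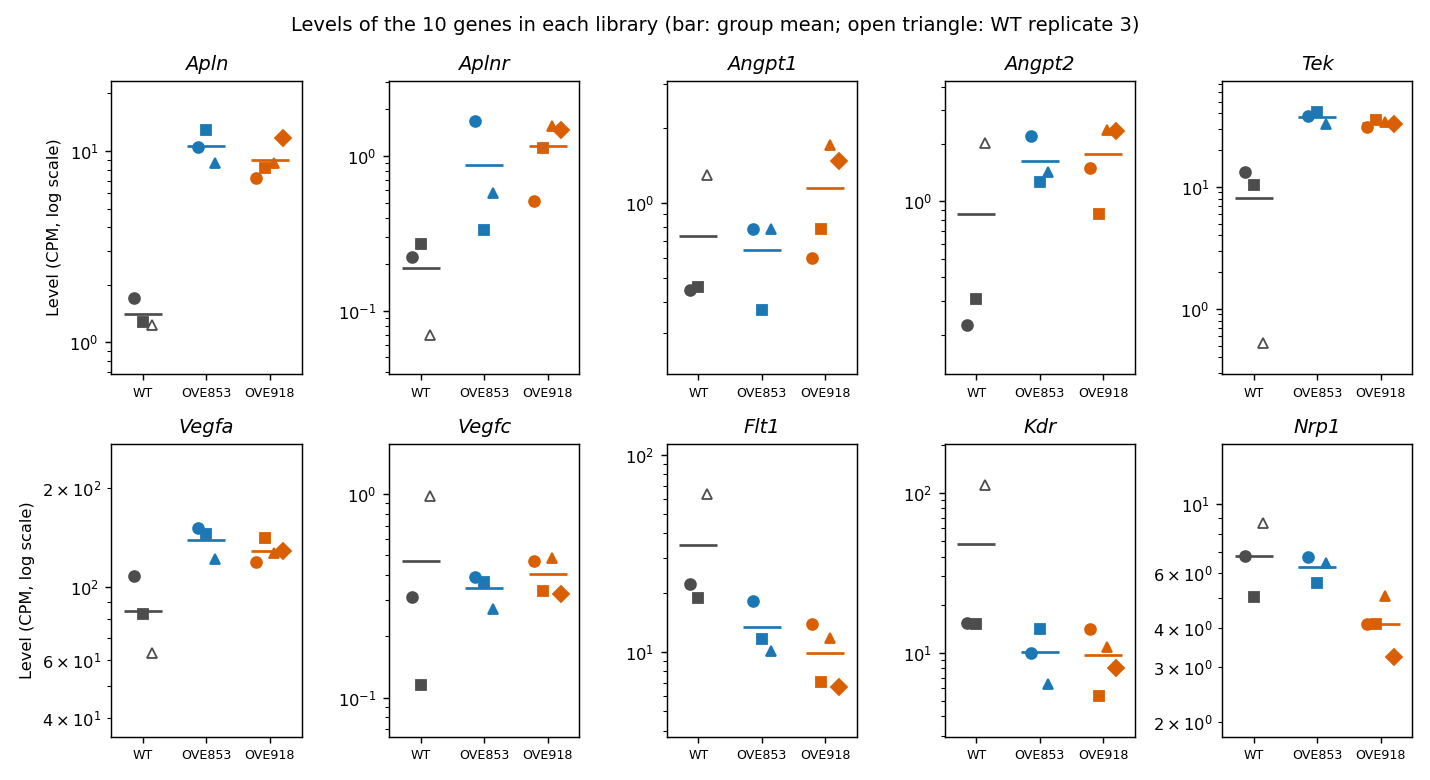
Level of each of the 10 genes in CPM (log scale, a separate range per panel) in the 3 WT, 3 OVE853 and 4 OVE918 libraries. Each point is 1 library, shaped by replicate number, the bar is the group mean, and the open triangle is WT replicate 3. Apln, Aplnr, Tek and Vegfa are higher in all 7 transgenic libraries than in any WT library, and Flt1 and Kdr are lower in all 7.

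For Apln, Tek, Vegfa and Kdr, the 4 genes that passed the FPKM minimum, the 250 bases before the start of the canonical transcript (GENCODE vM39, GRCm39) are shown, each read on the strand of its gene. Capitals mark matches on either strand to CAGAC (a SMAD-type motif), TGANTCA (AP-1 type), ACGTG and GCGTG (hypoxia-response type) and TGTTTAC (forkhead type). Apln lies on chromosome X, at X:47114019-47123775 on the minus strand, and its window is chrX:47123776-47124025. Tek is at 4:94627291-94763224 on the plus strand with the window chr4:94627041-94627290, Vegfa at 17:46327919-46343309 on the minus strand with the window chr17:46343310-46343559, and Kdr at 5:76093487-76139884 on the minus strand with the window chr5:76139119-76139368. The canonical transcript of Kdr starts inside the annotated gene, so its window lies within the gene span, whereas the other windows adjoin theirs.
Apln: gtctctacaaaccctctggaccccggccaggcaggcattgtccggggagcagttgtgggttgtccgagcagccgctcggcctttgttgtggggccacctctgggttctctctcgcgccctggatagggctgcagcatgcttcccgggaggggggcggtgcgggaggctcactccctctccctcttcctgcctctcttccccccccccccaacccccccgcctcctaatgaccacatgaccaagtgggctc
Tek: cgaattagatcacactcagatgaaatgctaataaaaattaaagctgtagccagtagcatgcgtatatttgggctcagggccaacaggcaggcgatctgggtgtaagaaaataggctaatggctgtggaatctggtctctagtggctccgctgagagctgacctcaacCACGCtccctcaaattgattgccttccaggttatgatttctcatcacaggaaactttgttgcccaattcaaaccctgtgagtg
Vegfa: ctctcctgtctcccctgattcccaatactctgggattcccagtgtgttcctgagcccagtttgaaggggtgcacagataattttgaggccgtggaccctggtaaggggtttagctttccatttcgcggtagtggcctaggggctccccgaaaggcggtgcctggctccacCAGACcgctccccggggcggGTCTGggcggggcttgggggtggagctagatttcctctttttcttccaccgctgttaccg
Kdr: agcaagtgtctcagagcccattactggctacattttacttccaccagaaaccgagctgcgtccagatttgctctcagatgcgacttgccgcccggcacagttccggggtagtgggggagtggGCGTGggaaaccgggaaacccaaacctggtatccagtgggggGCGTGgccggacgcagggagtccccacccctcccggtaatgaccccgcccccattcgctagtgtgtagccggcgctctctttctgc
The Apln window held none of these motifs. The Tek window held 1 GCGTG, on the opposite strand at -83 from the start, and the Kdr window held 2. The Vegfa window held 2 CAGAC, 1 on each strand. Over the same window of 21770 protein-coding genes, CAGAC was found in 41.3%, GCGTG in 31.2%, ACGTG in 17.0%, TGANTCA in 6.17% and TGTTTAC in 2.72%, so that CAGAC and GCGTG are common in such windows. A match says only that these letters are present.

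Apln, the apelin ligand, was strongly elevated in both lines. It was at 1.70, 1.27 and 1.23 CPM in the WT libraries, at 10.45, 12.9 and 8.61 CPM in OVE853 and at 7.20, 8.12, 8.62 and 11.8 CPM in OVE918. The lowest transgenic library was thus above the highest WT library, and both lines covered a similar range. The log2 fold change was 2.93 (SE 0.24, FDR 4.208e-05), a 7.64-fold higher level, in OVE853 and 2.68 (SE 0.24, FDR 2.873e-05), or 6.39-fold, in OVE918. In the wider test, which uses no FPKM minimum, it was 2.94 (FDR 9.415e-05) and 2.698 (FDR 5.174e-05). Apln rested on 33 to 38 read pairs in each WT library and on 168 to 348 in each transgenic one. Leaving out WT replicate 3, the wider test gave 2.81 (FDR 0.0001139) in OVE853 and 2.59 (FDR 8.96e-05) in OVE918. Over the 10 libraries, the genes whose log2 CPM followed Apln most closely were Ip6k3 (Pearson r = 0.99), H19 (0.99) and Kng2 (0.99). These are descriptions across libraries that share the difference between transgenic and WT pools.

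Aplnr, the apelin receptor, was scarcer per length than its ligand in every library, at 0.0189 to 0.474 FPKM against 0.382 to 3.97 FPKM for Apln. It was at 0.224, 0.269 and 0.0701 CPM in WT, at 1.69, 0.334 and 0.579 CPM in OVE853 and at 0.514, 1.12, 1.56 and 1.48 CPM in OVE918. Every transgenic library was above every WT library, but OVE853 replicate 2 was only just so. The WT values rest on 5, 7 and 2 read pairs, and the exact Poisson interval of the third reaches 0.253 CPM at 95%, for counting error only. The WT libraries did not reach the level that the count filter of the wider test asks. Aplnr thus entered that test only through transgenic libraries, and its call is given with this limit. In the wider test the log2 fold change was 2.65 (SE 0.70, FDR 0.02489) in OVE918, which was called, and 2.22 (SE 0.72, FDR 0.06421) in OVE853, which was not. When WT replicate 3 was left out the OVE918 value was 2.22 with an FDR of 0.07157, and the OVE853 value 1.77 with an FDR of 0.179. It also missed the threshold without OVE918 replicate 3 (FDR 0.06295) or replicate 4 (FDR 0.05357). The annotation places another gene, Lrrc55os, over Aplnr on the same strand, so its count is uncertain.

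Tek, which encodes TIE2, was the most abundant of the receptor genes in the transgenic lenses. It was at 13.3, 10.35 and 0.5259 CPM in WT, at 38.2, 40.95 and 32.9 CPM in OVE853 and at 31.1, 35.5, 33.9 and 32.7 CPM in OVE918. The transgenic libraries lay close together and all above WT, whereas WT replicate 3, with 15 read pairs against 298 and 269, was far below the other WT libraries. Its level was 5.08% of the lower of these, and 13 of the 11097 genes tested, Tek included, were at least as low in it by this measure.

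With all WT libraries, the log2 fold change of Tek was 2.22 (SE 0.73, FDR 0.07119) in OVE853 and 2.06 (SE 0.70, FDR 0.07439) in OVE918, and it was called in neither. The fold change without WT replicate 3 was smaller but had a narrower error, 1.66 (SE 0.14, FDR 4.847e-05) in OVE853 and 1.49 (SE 0.14, FDR 4.288e-05) in OVE918, and was called in both. In that fit 3.62% and 4.77% of genes were called. Without WT replicate 1, it was called in OVE853 at 2.79 (FDR 0.04871). With all WT libraries Tek was called in both lines by DESeq2 (FDR 0.03816 and 0.03666), where 4.94% and 6.20% of genes were called. It was also called in both by edgeR without robust estimation (FDR 0.04524 and 0.0452), where 4.68% and 5.79% were. The direction was the same in all these fits, and the call depended on which WT libraries entered and on the method.

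The angiopoietins were scarce in all groups. Angpt2, the context-dependent ligand of TIE2, was at 0.224, 0.308 and 2.03 CPM in WT, at 2.20, 1.26 and 1.43 CPM in OVE853 and at 1.499, 0.857, 2.38 and 2.35 CPM in OVE918. WT replicate 3 lay within the transgenic range, and the other WT libraries, with 5 and 8 read pairs, lay below it. The log2 fold change was 0.93 (SE 0.70, FDR 0.3849) and 1.06 (SE 0.67, FDR 0.3076), and without WT replicate 3 it was 2.56 (FDR 0.01335) and 2.704 (FDR 0.005486), called in both lines where 4.96% and 7.28% of genes were called. In the fit without WT replicate 3, Angpt2 passed the count filter only through transgenic libraries, as the remaining WT libraries were too low for it. Angpt1, the TIE2 agonist, was at 0.447, 0.462 and 1.30 CPM in WT, 0.371 to 0.785 CPM in OVE853 and 0.600 to 1.71 CPM in OVE918. Its groups overlapped, and its log2 fold change of -0.18 (SE 0.55, FDR 0.8487) in OVE853 and 0.65 (SE 0.51, FDR 0.4158) in OVE918 did not pass the test. Leaving out WT replicate 3 gave 0.48 (FDR 0.6503) and 1.32 (FDR 0.1417).

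Vegfa, the main VEGF ligand, was the most abundant of the 10 genes per length in every group, with a mean of 23.6 FPKM in WT, 41.4 in OVE853 and 34.2 in OVE918. It was at 108, 82.7 and 63.2 CPM in WT, at 152, 145 and 122 CPM in OVE853 and at 119, 141, 127 and 128.5 CPM in OVE918. All transgenic libraries were above all WT libraries, with a small gap between WT replicate 1 and the lowest of them. The log2 fold change was 0.72 (SE 0.17, FDR 0.0172) in OVE853 and 0.61 (SE 0.16, FDR 0.02233) in OVE918. It passed the FDR in both lines, as 15.8% and 19.0% of genes did, but at 1.65-fold and 1.52-fold it was under the fold change asked for a call. It was 0.55 (FDR 0.02796) and 0.43 (FDR 0.04989) without WT replicate 3, where the wider test gave OVE918 an FDR of 0.05019. With only the groups compared in the fit, Vegfa missed the FDR in OVE853 (0.05741) and in OVE918 (0.0573).

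Vegfc, a ligand best known for lymphatic vessels, was near the limit of what the depth can resolve, with 3 to 28 read pairs a library. It was at 0.313, 0.115 and 0.982 CPM in WT, 0.272 to 0.393 CPM in OVE853 and 0.323 to 0.483 CPM in OVE918. Its transgenic values lay inside the WT range. The log2 fold change was -0.44 (SE 0.61, FDR 0.6452) and -0.21 (SE 0.57, FDR 0.838), and without WT replicate 3 it turned to 0.67 (FDR 0.5306) and 0.93 (FDR 0.3502).

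Kdr, the main signaling receptor of VEGF-A, had lower levels in all transgenic libraries than in any WT library, by an amount that depended on WT replicate 3. It was at 15.4, 15.2 and 113 CPM in WT, at 9.91, 14.1 and 6.33 CPM in OVE853 and at 14.1, 5.36, 10.9 and 8.07 CPM in OVE918. The first WT libraries were only just above the highest transgenic ones, while WT replicate 3 was 7.31-fold above the higher of them. The log2 fold change was -2.25 (SE 0.81, FDR 0.09235) in OVE853 and -2.32 (SE 0.74, FDR 0.06054) in OVE918, and it was called in neither. Without WT replicate 3 Kdr no longer reached the FPKM minimum, and in the wider test it was -0.64 (SE 0.38, FDR 0.3382) and -0.67 (SE 0.35, FDR 0.2776).

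Flt1, the high-affinity receptor that can hold VEGF-A back from KDR, was, like Kdr, highest in WT replicate 3. It was at 22.1, 18.9 and 63.4 CPM in WT, at 18.2, 11.7 and 10.1 CPM in OVE853 and at 14.0, 7.04, 11.8 and 6.69 CPM in OVE918. All transgenic libraries were below all WT libraries, with OVE853 replicate 1 just under WT replicate 2. In the wider test the log2 fold change was -1.79 (SE 0.44, FDR 0.02093) in OVE918, which was called, and -1.37 (SE 0.47, FDR 0.08127) in OVE853, which was not. Flt1 without WT replicate 3 was at -1.06 (SE 0.30, FDR 0.04266) in OVE918, still called, and at -0.66 (SE 0.32, FDR 0.2466) in OVE853. The OVE918 call was lost without OVE918 replicate 2 (FDR 0.05777) or replicate 4 (FDR 0.06006).

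Nrp1, the coreceptor, was at 6.80, 5.04 and 8.66 CPM in WT, at 6.74, 5.596 and 6.47 CPM in OVE853 and at 4.11, 4.14, 5.05 and 3.23 CPM in OVE918. OVE853 lay within the WT range, and OVE918 lay at its lower end or below. The log2 fold change was -0.11 (SE 0.22, FDR 0.7548) in OVE853. In OVE918 it was -0.70 (SE 0.21, FDR 0.04403), which passed the FDR, as 16.9% of genes did in the wider test, but not the fold change. Without WT replicate 3 the values were 0.05 (FDR 0.9184) in OVE853 and -0.51 (FDR 0.1533) in OVE918.

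**Figure D2:**
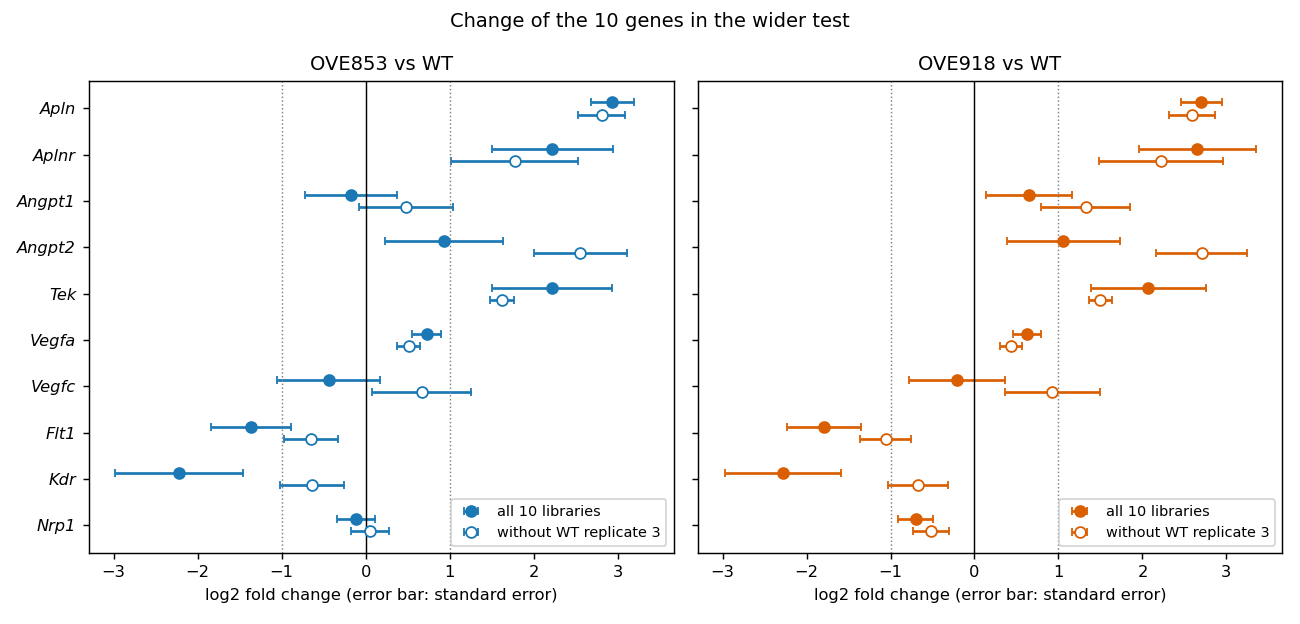
Log2 fold change of the 10 genes against WT in OVE853 and OVE918 in the wider test, with standard errors as bars. Filled points use all 10 libraries and open points leave out WT replicate 3, and dotted lines mark a log2 fold change of 1 in either direction. Apln stays above 2.5 in both fits, whereas Kdr moves from -2.22 to -0.64 in OVE853 and from -2.28 to -0.67 in OVE918.

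Per length, the order of the genes in WT depended on WT replicate 3. Over all 3 WT libraries the mean was 23.6 FPKM for Vegfa, 7.97 for Kdr, 3.11 for Flt1, 1.56 for Tek, 0.850 for Nrp1 and 0.422 for Apln, and the other 4 genes were below 0.2. The ranges of all neighbours in this order overlapped except those of Nrp1 and Apln. Over WT replicates 1 and 2 the means were 26.3 FPKM for Vegfa, 2.48 for Kdr, 2.28 for Tek, 1.79 for Flt1, 0.723 for Nrp1 and 0.443 for Apln, so that Kdr was over 3-fold lower and Tek came before Flt1, and the ranges of Kdr and Tek overlapped. In OVE853 Tek (7.76 FPKM) and Apln (3.41) came directly after Vegfa and ahead of Kdr (1.74) and Flt1 (1.25), and the ranges of Vegfa, Tek, Apln and Kdr did not overlap. OVE918 had the same first 8 genes in the same order, with 6.18 FPKM for Tek, 2.54 for Apln, 1.47 for Kdr and 0.819 for Flt1, and there the ranges of Apln and Kdr overlapped. In WT Apln came after Kdr, Flt1 and Nrp1 with or without WT replicate 3. These orders are descriptions with no test between genes.

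Between the lines 0 of the 10 genes were called in either test, where 0.487% and 0.244% of all genes were. The groups did not overlap for 1 of the 10, Nrp1, as for 24.3% of all genes in the wider test. Its log2 difference of OVE918 from OVE853 was -0.59 (SE 0.21), with an FDR of 0.1946. The log2 difference of OVE918 from OVE853 was -0.26 (SE 0.20) for Apln, -0.16 (SE 0.64) for Tek, -0.11 (SE 0.16) for Vegfa and -0.07 (SE 0.75) for Kdr. The fit without WT replicate 3 called 0 of the 10 as well, with -0.26 (FDR 0.3867) for Apln, -0.16 (FDR 0.3223) for Tek and -0.56 (FDR 0.1147) for Nrp1. DESeq2 called 0 of the 10 as well, and 1 of the 10 (Nrp1) was under 0.05 in edgeR before adjustment. These standard errors rest on a spread shared with WT, where WT replicate 3 stood apart for Tek and Kdr. Tek itself was at 32.9 to 40.95 CPM in OVE853 and 31.1 to 35.5 CPM in OVE918. Kdr was at 6.33 to 14.1 CPM and 5.36 to 14.1 CPM. For both genes the fit leaves room for a difference of 2-fold or more, so that it does not show the lines to be alike.

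Markers of other cell types moved with some of these genes. The 13 endothelial markers summed to 47.4 to 56.6 CPM in WT, 49.1 to 67.7 in OVE853 and 54.1 to 76.5 in OVE918, and none was at 0 in all libraries of a group. Most of that sum was Egfl7, at 25.2 to 39.9 CPM. The other 12 markers summed to 14.4 to 22.2 CPM in WT, 19.5 to 39.6 in OVE853 and 22.7 to 36.6 in OVE918.

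Of the endothelial list, Cdh5 and Eng were called higher in OVE853, and Cdh5, Eng, Pecam1 and Cldn5 in OVE918, with 0 called lower, in the wider test that called 3.17% and 3.45% of all genes higher. Without WT replicate 3 it was Cdh5 and Eng in both lines. Cdh5, which encodes VE-cadherin, was at 1.70, 1.39 and 0.281 CPM in WT and at 3.41 to 7.25 CPM in the transgenic libraries. Per length, Cdh5 reached 0.726 to 1.87 FPKM in the transgenic libraries, where Tek was at 5.42 to 8.15 FPKM and Aplnr at 0.0888 to 0.474 FPKM. The endothelial markers did not move together in WT replicate 3. Cdh5 was at its lowest of all libraries there, and Erg and Sox17 had no read, whereas Plvap (5.715 CPM against 0.939 and 2.08 in the other WT libraries), Esam (6.52 against 2.46 and 1.81) and Ramp2 (3.37 against 3.04 and 1.65) were at their highest. Plvap and Ramp2 were not called in either line. The part of endothelial cells in the higher Tek, Aplnr and Apln levels was not tested.

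Some retinal lists and the ciliary list had, like Kdr and Flt1, their highest levels in WT. The retinal neuron markers summed to 96.3 to 978 CPM in WT, 30.8 to 78.6 in OVE853 and 36.4 to 168 in OVE918, and the Müller glia and astrocyte markers to 469 to 1574, 226 to 253 and 129 to 241 CPM. The 10 photoreceptor markers did not follow this, with 28.6 to 115 CPM in WT, 28.25 to 53.7 in OVE853 and 46.7 to 105 in OVE918, and 1 of them, Nrl, was called higher in OVE918. The 6 markers of nonpigmented ciliary epithelium summed to 220 to 368 CPM in WT, 86.7 to 102 in OVE853 and 32.6 to 57.7 in OVE918. OVE918 replicate 1 had the highest retinal neuron sum of the transgenic libraries, at 168 CPM. Its Kdr level of 14.13 CPM was hardly above the 14.08 CPM of OVE853 replicate 2, where that sum was 78.6 CPM. Among the transgenic libraries Flt1 was highest in OVE853 replicate 1, at 18.2 CPM, where the sum was 42.2 CPM. Without WT replicate 3, the remaining Müller glia and ciliary sums in WT still lay above those of every transgenic library, as Kdr and Flt1 did, but the retinal neuron sums of 96.3 and 119 CPM did not, being below the 168 CPM of OVE918 replicate 1. In the wider test Aqp4, Glul, Rlbp1 and Slc1a3 of the Müller glia list were called lower in OVE853 and the first 3 of these in OVE918, and Best2, Slc6a13, Wfdc1 and Aqp4 of the ciliary list were called lower in both, with Cldn2 added in OVE918. Of the retinal neuron list Calb2 was called lower in OVE853, and of the pigmented epithelium list Rpe65 and Ttr were called lower in both lines. The other markers of the pigmented epithelium list were not called. Its 8 markers summed to 52.3 to 164 CPM in WT, 38.5 to 81.0 in OVE853 and 39.9 to 74.7 in OVE918, with overlapping groups. The part of these cells in the lower Kdr and Flt1 levels was not tested. Pericyte markers (115 to 154 CPM in WT, 154 to 193 in OVE853, 122 to 159 in OVE918) and macrophage markers (19.97 to 47.4, 46.4 to 73.8 and 31.9 to 82.4 CPM) were also present, and the erythrocyte sum ranged from 7.67 to 74.3 CPM with overlapping groups. Most of the pericyte sum was Pdgfrb, at 83.0 to 141 CPM, and 2 other markers of that list were called higher in both lines, Cspg4 (0.701 to 1.66 CPM in WT, 3.85 to 11.3 in the transgenic libraries) and Des (0.0894 to 0.346 and 1.04 to 5.72 CPM). The WT libraries of Des, and of Nrl (0.0385 to 0.175 CPM), did not reach the level that the count filter of the wider test asks. Des and Nrl thus entered it only through transgenic libraries, and their calls are given with this limit. Of the macrophage list Mrc1 was called lower in both lines, and C1qa and Cd68 were called higher in OVE918. Without WT replicate 3, C1qa and C1qb were called higher in both lines, Cd68 higher in OVE918 and Mrc1 lower in both. In that fit Cspg4 and Des stayed higher in both lines and Nrl in OVE918, and Notch3 of the pericyte list was lower in OVE918. Of the retinal neuron list Tubb3 was called higher in OVE918, and Calb2 was no longer called in OVE853. Of the Müller glia list only Rlbp1 stayed lower in OVE853, and only Aqp4 and Glul in OVE918. Best2, Slc6a13 and Wfdc1 of the ciliary list stayed lower in both lines, and Aqp4 and Cldn2 in OVE918 only. Ttr stayed lower in both lines, and Rpe65 in OVE918 only.

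**Figure D3:**
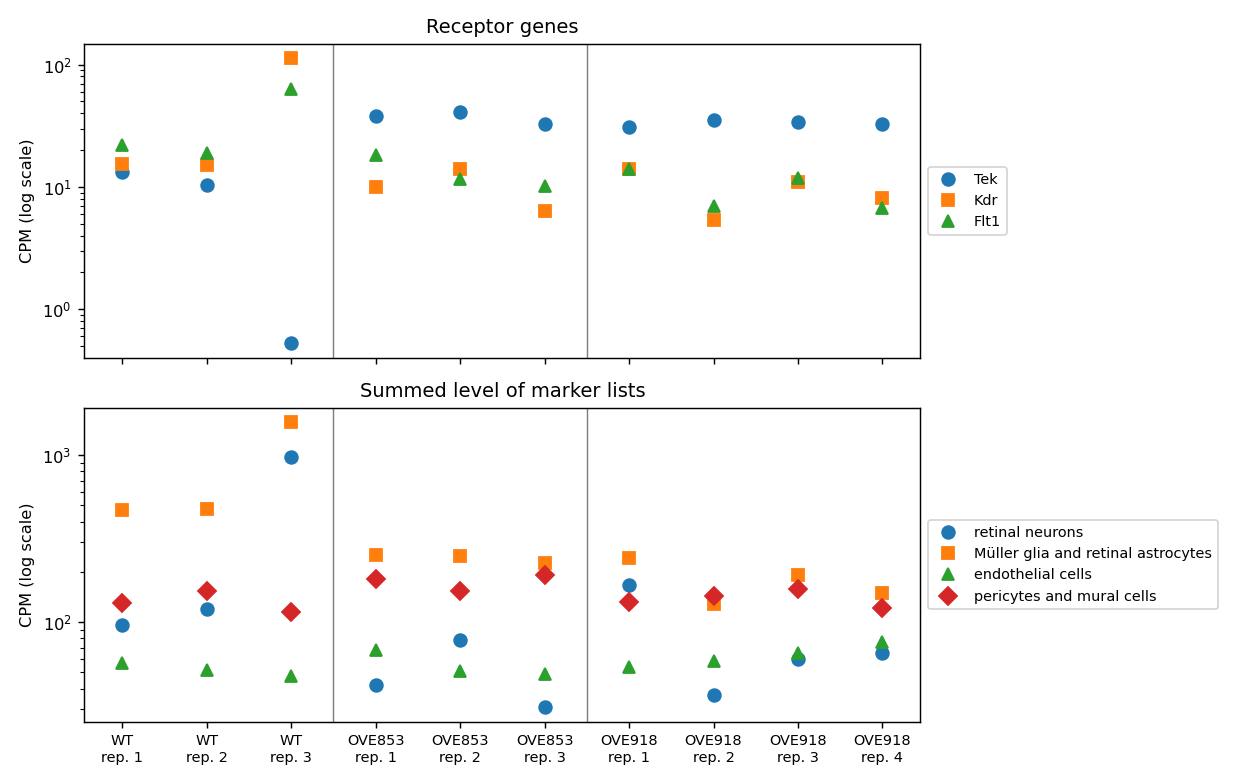
Upper panel: levels of the receptor genes Tek, Kdr and Flt1 in CPM (log scale) in each of the 10 libraries. Lower panel: summed CPM (log scale) of the marker lists for retinal neurons, Müller glia and retinal astrocytes, endothelial cells, and pericytes and mural cells in the same libraries. In WT replicate 3 Kdr (113 CPM), Flt1 (63.4 CPM) and the retinal neuron sum (978 CPM) are at their highest and Tek (0.5259 CPM) is at its lowest.

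Other genes of the same pathways, 55 in 7 lists, moved in both directions. In the first test 37 of them were tested, of which 4 were called higher and 2 lower in OVE853 and 2 higher and 3 lower in OVE918. Over all genes of that test 2.51% were called higher and 1.91% lower in OVE853, and 2.58% higher and 3.02% lower in OVE918. The wider test held 51, with 5 higher and 2 lower in OVE853 and 5 higher and 5 lower in OVE918, where the shares over all genes were 3.17% higher and 3.72% lower in OVE853 and 3.45% higher and 5.34% lower in OVE918. Their median log2 fold change in the first test was 0.05 in OVE853 and -0.05 in OVE918, beside -0.01 and 0.01 over all genes tested.

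Among VEGF ligands and coreceptors, Pgf and Nrp2 rose. Pgf encodes placental growth factor, a ligand of FLT1, and went from 22.2 ± 4.8 CPM (SD, n = 3) in WT to 47.8 ± 1.8 (n = 3) in OVE853 and 44.0 ± 5.7 (n = 4) in OVE918. Its log2 fold change was 1.11 (FDR 0.001155) in OVE853 and 0.99 (FDR 0.0009944) in OVE918, which fell just short of the fold change asked, while the wider test put OVE918 at 1.01 (FDR 0.001536). Nrp2, the coreceptor for VEGF-C and semaphorins, rose by 1.21 (FDR 0.01779) and 1.24 (FDR 0.009251) from 11.6 ± 4.8 CPM in WT.

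In the angiopoietin list, which held 5 other genes, calls came only from the wider test. Angpt4, a further TIE2 ligand, rose in OVE853 by 1.22 (FDR 0.049) and was at 0.90 (FDR 0.09791) in OVE918. Tie1, the orphan receptor that pairs with TIE2, rose in OVE918 by 2.01 (FDR 0.03024) from 0.390 ± 0.139 CPM in WT to 1.56 ± 0.72 CPM, and Ptprb, the phosphatase VE-PTP that acts on TIE2, by 2.15 (FDR 0.01024). In OVE853 they were at 1.36 (FDR 0.1317) and 1.59 (FDR 0.05313). For apelin the other ligand, Apela, was too low for either test.

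Of 12 semaphorin and plexin genes, Plxnd1, a receptor of semaphorin 3E, rose by 1.39 (FDR 0.01518) in OVE853 and 1.64 (FDR 0.003625) in OVE918. Sema3d, which encodes a secreted class 3 semaphorin, fell in both lines, with log2 fold changes of -1.29 (FDR 0.001508) and -1.95 (FDR 3.91e-05) and levels of 30.9 ± 3.8 CPM in WT, 12.6 ± 2.5 in OVE853 and 8.01 ± 1.72 in OVE918. Sema3e itself was called lower in OVE918 by the wider test (-1.52, FDR 0.03508), with a WT level of 5.495 ± 4.359 CPM. Of the 14 signaling proteins below these receptors, Prkcb, a protein kinase C, was the 1 called, at -1.17 (FDR 0.01224) in OVE918 and -0.94 (FDR 0.05188) in OVE853. Its WT level was 67.37 ± 30.33 CPM.

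Of 8 oxygen-sensing regulators of Vegfa, 0 were called in the first test, which held 7 of them. By FDR alone 2 passed in OVE853 and 3 in OVE918, where 15.8% and 19.0% of all genes did. Egln1 was at 0.63 (FDR 0.002193) in OVE853 and 0.86 (FDR 0.0001325) in OVE918, and Egln3 at 0.89 (FDR 0.004781) and 0.50 (FDR 0.04197). Vhl was at -0.29 (FDR 0.02936) in OVE918. Hif1a, the inducible subunit of the hypoxia-inducible factor, was at 0.35 (FDR 0.1996) in OVE853 and -0.10 (FDR 0.737) in OVE918. Epas1, which encodes HIF-2α, was called lower in OVE918 by the wider test (-1.45, FDR 0.02326). Its WT mean was 16.1 ± 11.3 CPM.

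Among 10 secreted antiangiogenic proteins, Col18a1, the source of endostatin, was the 1 called lower, in both lines, from 436 ± 84 CPM in WT to 178 ± 16 in OVE853 and 65.6 ± 15.96 in OVE918. Its log2 fold change was -1.29 (FDR 0.001674) in OVE853 and -2.73 (FDR 5.26e-06) in OVE918. The lines differed by -1.44 in OVE918 against OVE853 (FDR 0.009664), the 1 gene of the 55 called between them. Serpinf1, which encodes the antiangiogenic factor PEDF, rose in OVE853 by 2.18 (FDR 0.04291) and was at 1.13 (FDR 0.2006) in OVE918. Its WT level varied widely, at 16.98 ± 12.5 CPM. The fold changes of these pathway genes are given with all libraries only.

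**Figure D4:**
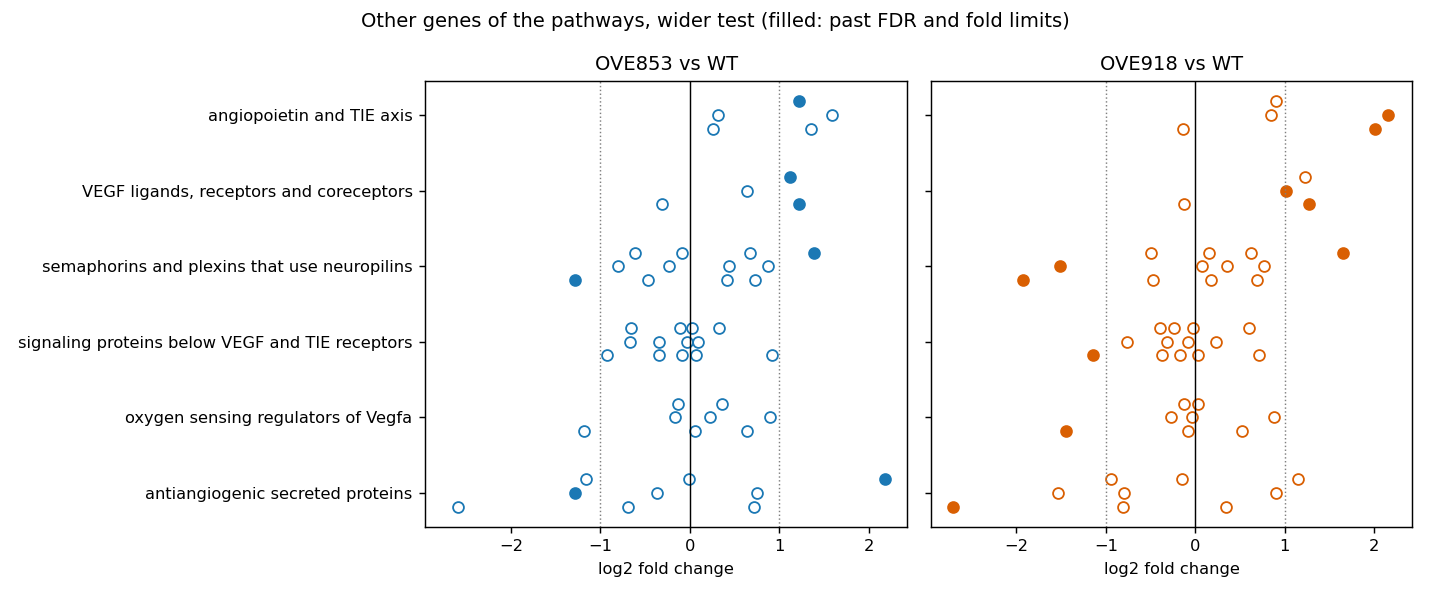
Log2 fold change against WT in the wider test of the pathway genes other than the 10, by list, in OVE853 and OVE918. Each point is 1 gene, filled where it passed an FDR of 0.05 and a log2 fold change of 1 in either direction, and the vertical spread only separates points. Points lie on both sides of 0 in most lists, and Col18a1 is the lowest filled point at -2.71 in OVE918.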

How the data were processed

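RNA-seq was made from 10 pools, 1 library each (WT n = 3, OVE853 n = 3, OVE918 n = 4). The authors used Cutadapt 5.2 for trimming and STAR 2.7.11b for alignment to mm39, counted read pairs per gene with featureCounts 2.0.8 on RefSeq exons by strand and deposited the table: the deposited values are whole, unnormalized counts. Multiply mapped read pairs and overlapping genes can lower such counts. Here TMM-scaled counts were tested with edgeR 4.0.16 (R 4.3.3; robust quasi-likelihood, Benjamini-Hochberg) over all 10 libraries at once. FPKM used exon lengths of GENCODE vM39, missing for 7489 of 50763 genes, which differ from the RefSeq lengths of the authors. The wider test used filterByExpr. DESeq2 1.42.0, other filters, normalizations and covariates, and leaving out each library were alternatives. Scripts were tested on simulated data. Pools of different mice are the replicates. The 10 genes, the pathway and marker lists and the tests were chosen with earlier results of these data known. Pathway genes called in either line are named, and of the marker lists for cells other than lens the sums, leading genes and genes called with all libraries and without WT replicate 3. Endothelial sums without Egfl7 and marker tests were added after values were seen. Library totals of 24073311 to 31908525 limit precision for genes with few read pairs.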

Additional observations from a re-analysis of the deposited data

How the results depend on the processing

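Apln was called in both lines in all 22 settings (main and alternatives). Of 594 alternative fold changes over the 10 genes and 3 comparisons, 550 kept their direction and side of the threshold, 22 gained and 8 lost a call, and 14 changed sign, all of genes that were not called. In the first test the number called went from 1 to 3 in OVE853 and 1 to 3 in OVE918 with DESeq2 (adding Tek and Kdr), where 4.94% and 6.20% of all genes were called, to 2 and 3 without robust estimation (4.68% and 5.79%), to 2 and 2 with the R number of the library names as a covariate (4.45% and 5.79%), and to 2 and 2 by FDR alone (15.8% and 19.0%). With filterByExpr it was 3 in OVE918 (8.79%), and with genes of at least 1 count 2 (4.98%). In the wider test it went from 1 in OVE853 to 5 with DESeq2 (9.81%), 2 without robust estimation (7.50%), 4 with the R number (8.58%) and 2 by FDR alone (13.6%), and from 3 in OVE918 to 5 with DESeq2 (10.8%), 5 without robust estimation (9.14%), 5 by FDR alone (16.9%) and 1 with 2 FPKM in 6 libraries (5.35%), where fewer genes were tested. Leaving out 1 library at a time gave 1 to 2 calls in each line in the first test, and in the wider test 1 to 3 in OVE853 and 1 to 4 in OVE918. Bias-adjusted deviances, chosen after seeing the data, changed 0 calls. The causes of these moves were not tested.

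The replicate numbers are only names: same-numbered libraries had correlations of deviations from -0.30 to 0.08 over 9 pairs. With the replicate number as a block, OVE918 had 1 call in the wider test (Apln; 6.40% of all genes), with Aplnr at an FDR of 0.09775 and Flt1 at 0.07822, and the other counts of calls were as before. Under the block Vegfc turned to 0.056 in OVE918 against WT and Angpt2 to -0.24 in OVE918 against OVE853.

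Signs also changed for Angpt1 in OVE853 against WT (0.19 with the R number, and -0.42 to 0.48 without 1 library, with 0.10 without OVE853 replicate 2), for Vegfc (-0.89 to 0.67 in OVE853 and -0.64 to 0.93 in OVE918 without 1 library) and for Nrp1 in OVE853 (-0.29 to 0.049), each highest without WT replicate 3. Between the lines, Kdr turned to 0.14 with the R number, and ranged from -0.31 to 0.13 without 1 library (0.0021 without OVE918 replicate 4), and Angpt2 ranged from -0.049 to 0.43, with -0.028 without OVE853 replicate 2 and -0.026 without OVE918 replicate 4. Depth limits Aplnr, Angpt1, Angpt2 and Vegfc, which had 2 to 73 read pairs a library.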
